A study of Homo sapiens with 9 samples.

Results

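S100B is a small calcium-binding protein that astrocytes secrete, and cells sense it mainly through RAGE, the receptor for advanced glycation end products. Described here are the transcripts of 5 genes of this signalling route. AGER encodes RAGE itself, ALCAM encodes an adhesion molecule related to RAGE that has also been described as an S100B receptor, and FGFR1 encodes a fibroblast growth factor receptor that S100B can engage together with its ligand FGF2. DIAPH1 encodes the diaphanous formin that binds the cytoplasmic tail of RAGE, and RAC1 encodes a small GTPase that acts below it. Every probe set annotated with 1 of these 5 gene symbols was taken, with no filter on intensity, which gave 5 of 8746 probe sets, 1 for each gene, and 5 of the 7713 genes with a probe set of their own. Their Entrez gene identifiers are 177 for AGER, 214 for ALCAM, 2260 for FGFR1, 1729 for DIAPH1 and 5879 for RAC1.

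The cells were LAN-5, an established human neuroblastoma line. Of the 9 Affymetrix oligonucleotide arrays, 3 came from untreated cells, which received culture medium alone, 3 from cells given S100B at 0.5 nM and 3 from cells given S100B at 5 µM. The series describes the 3 arrays of each group as biological replicates. All groups were plated at the same density in DMEM. No treatment length is stated in the labels. The values are log2 signals, 1 per probe set and array. All cells are of 1 line, so the results do not extend to other neuroblastoma cells.

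RAGE is a multiligand receptor of the immunoglobulin superfamily with a short cytoplasmic tail that has no kinase activity of its own. After ligand binding, the formin DIAPH1 on that tail passes the signal to the GTPases RAC1 and CDC42, to mitogen-activated protein kinases and to NF-kB. In neurons and neuroblastoma cells RAGE is known for its role in neurite outgrowth, and S100B is known to support survival at low concentrations and to be toxic at high ones. Both a low and a high concentration were used in the series.

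The arrays were alike. Across probe sets, arrays of 1 group correlated at 0.996 to 0.998 and arrays of different groups at 0.996 to 0.998. Untreated replicate 1 stood apart in the 18 bacterial and phage control probe sets, with a mean of 8.70 log2 against 9.04 to 9.45 on the other 8 arrays. Of 16 markers of neuroblastoma and sympathetic neurons, 14 were measured and 13 lay above the array median, among them GATA3 at the 98.4th percentile and DBH at the 93.9th. The exception was TH, tyrosine hydroxylase, at the 22.8th percentile. The lists for leukocytes, mesenchyme with Schwann-like cells, glia and epithelium had medians at the 39.4th, 22.4th, 21.0th and 10.2th percentile, with VIM the 1 gene of these lists above the 75th, and 0 of these markers or of the neuroblastoma markers passed the test in any comparison.

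The place of each gene within an array is given as a percentile, the share of the 8746 probe sets on that array with an equal or lower signal. Probe sets differ in how strongly they bind, so a percentile describes a signal and does not rank transcripts of different genes. RAC1 lay near the top of every array, at the 98.5th to 98.7th percentile. ALCAM lay at the 86.3th to 88.9th percentile, DIAPH1 at the 73.7th to 76.8th and FGFR1 at the 71.3th to 75.6th. AGER was the only one of the 5 below the median, at the 30.04th to 36.9th percentile. The 6 measured leukocyte markers are genes of a cell type that the culture should lack. They occupied percentiles from 2.76 for PTPRC to 57.6 for LCP1, and the AGER range fell inside that span. The span reaches past the median, so lying inside it does not decide whether AGER was at background. Detection calls were not used here, so the AGER signal was not shown to stand above background.

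**Figure D1:**
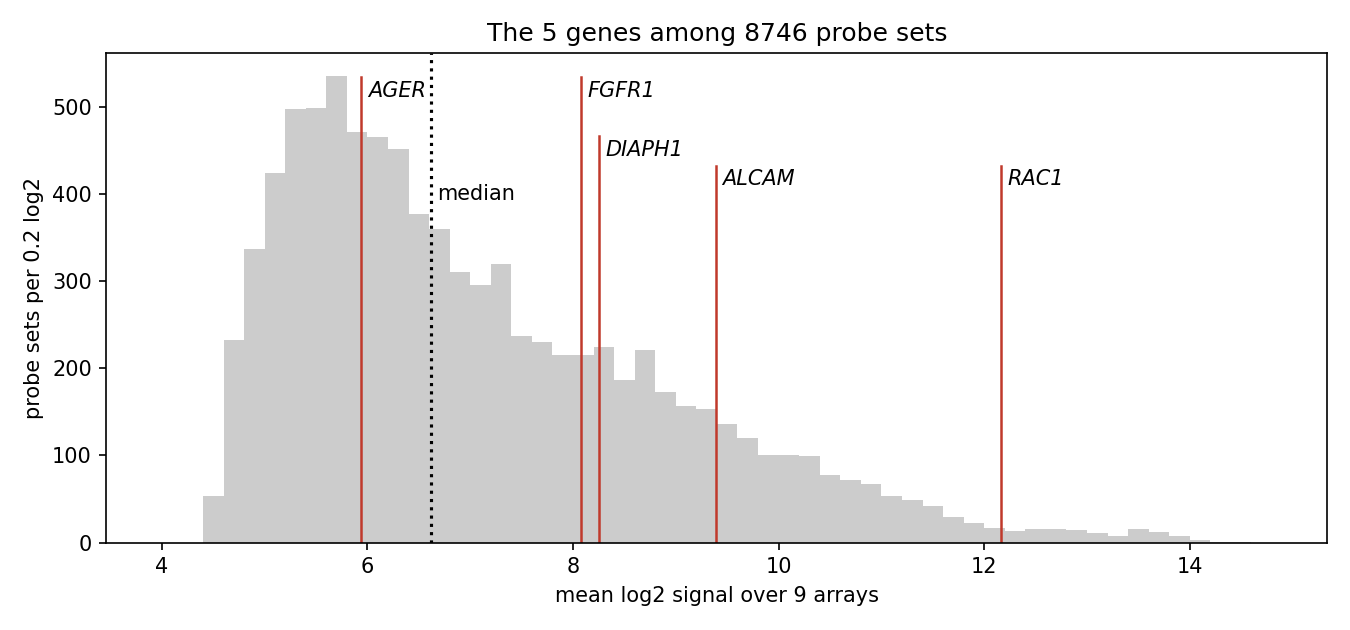
Histogram of the mean log2 signal over 9 arrays for 8746 probe sets (x axis, log2 signal; y axis, number of probe sets per bin), with red lines at the 5 genes and a dotted line at the median. AGER, with a mean of 5.94, lies left of the median, FGFR1 at 8.08, DIAPH1 at 8.25 and ALCAM at 9.39 lie right of it, and RAC1 at 12.16 lies in the upper tail.

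None of the 5 genes passed the test at either dose or between the doses. With limma fitted to all 9 arrays and Benjamini-Hochberg adjustment over 8746 probe sets, 0 of 5 had an adjusted p under 0.05 in each of the 3 comparisons, and their adjusted p ran from 0.592 to 0.947 in the test for any difference among the 3 groups. The background was equally sparse, with 0.183% of all probe sets called at 5 µM against untreated, 0% at 0.5 nM against untreated, 0.16% at 5 µM against 0.5 nM and 0.16% in the test for any difference among groups, where 5.66% passed unadjusted and 1 of the 5 genes, RAC1, did. At an unadjusted p under 0.05, the count was 0 of 5 genes at 5 µM against untreated, where 7.71% of all probe sets passed, 2 of 5 at 0.5 nM (AGER and RAC1), where 4.04% did, and 2 of 5 between the doses (ALCAM and RAC1), where 4.44% did. The fit with an intensity trend and robust prior also called 0 of 5 in each comparison. The 95% intervals of the 10 differences from untreated, not adjusted for their number, ran from 80.1% to 122.7% of the untreated level, so a larger change in these signals lay outside the interval of every gene. A lower signal from fewer expressing cells and one from less RNA per cell cannot be told apart in RNA from whole cultures.

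**Figure D2:**
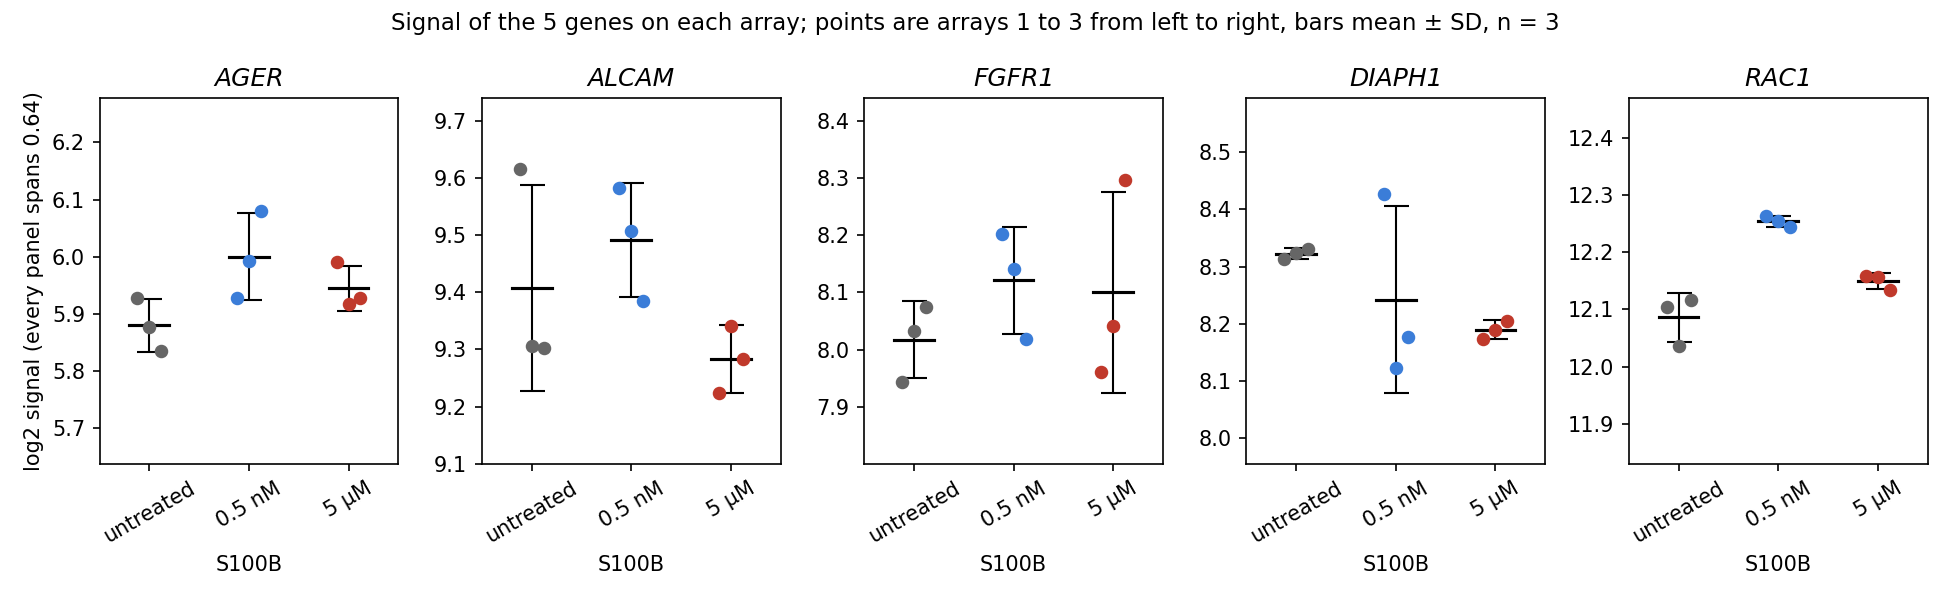
Log2 signal (y axis, equal span in every panel) of the 5 genes on each of 9 arrays, by S100B concentration (x axis: untreated, 0.5 nM, 5 µM). Points are arrays, horizontal lines group means and bars the SD over 3 arrays. The RAC1 points of the 3 groups do not overlap, with 0.5 nM highest and only 0.017 log2 between the untreated and 5 µM points, while the points of FGFR1 and AGER overlap between all groups.

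AGER, the RAGE gene, had 5.93, 5.88 and 5.84 log2 in untreated cells, 5.93, 5.99 and 6.08 at 0.5 nM and 5.99, 5.92 and 5.93 at 5 µM. The values span 0.24 log2, and the lowest 0.5 nM array had the same signal as the highest untreated array. Group means were 5.88 ± 0.047 in untreated cells, 6.00025 ± 0.076 at 0.5 nM and 5.95 ± 0.039 at 5 µM (SD, n = 3 each). The difference at 0.5 nM against untreated was 0.12 ± 0.050 (SE), or 108.7% of untreated, with a 95% interval of 100.5% to 117.5% and limma's adjusted p = 0.979. At 5 µM it was 0.07 ± 0.050 (SE), with limma's adjusted p = 0.793. In the order untreated, 5 µM, 0.5 nM, neither pair of neighbours passed the test, and their arrays overlapped.

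ALCAM, the adhesion molecule also called CD166, had 9.62, 9.31 and 9.30 log2 in untreated cells, 9.58, 9.51 and 9.38 at 0.5 nM and 9.22, 9.34 and 9.28 at 5 µM. All 3 arrays at 5 µM lay below all 3 at 0.5 nM, while the untreated arrays spanned both because replicate 1 was high and replicates 2 and 3 were low. The mean at 5 µM was 9.28 ± 0.059 and that at 0.5 nM was 9.49 ± 0.10 (SD, n = 3 each). The difference between the doses was -0.21 ± 0.087 (SE), or 86.5% of the 0.5 nM level, with a 95% interval of 75.6% to 99.0% and limma's adjusted p = 0.988. In size it exceeded 98.3% of all probe sets in that comparison, but by limma's unadjusted p it ranked 308 among 8746. The within-group SD of ALCAM, 0.124 log2, was also large, at the 84.6th percentile of all probe sets. The lowest 0.5 nM array exceeded the highest 5 µM array by 0.043 log2. Such separation with 5 µM lower was seen in 4.41% of all probe sets.

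Against untreated cells, ALCAM differed by 0.08 ± 0.087 (SE) at 0.5 nM and by -0.12 ± 0.087 (SE) at 5 µM, with limma's adjusted p of 0.979 and 0.762. Untreated replicate 1, the array that stood apart in the control probe sets, carried the high ALCAM value. Without it, the difference was 0.19 at 0.5 nM and -0.02 at 5 µM. Without untreated replicate 3 it was 0.031 at 0.5 nM and -0.18 at 5 µM, and over all arrays left out in turn it ran from 0.031 to 0.19 at 0.5 nM and from -0.18 to -0.02 at 5 µM. None of these passed. The part of that array in the result was not tested further.

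FGFR1, the fibroblast growth factor receptor, had 7.94, 8.03 and 8.08 log2 in untreated cells, 8.20, 8.14 and 8.02 at 0.5 nM and 7.96, 8.04 and 8.30 at 5 µM. All 3 groups overlapped. The highest value of all was 5 µM replicate 3, and the 5 µM group had the largest spread, with an SD of 0.18 against 0.094 at 0.5 nM and 0.068 in untreated cells (n = 3 each). The difference against untreated was 0.10 ± 0.086 (SE) at 0.5 nM and 0.08 ± 0.086 (SE) at 5 µM, with limma's adjusted p of 0.979 and 0.856. Without 5 µM replicate 3 the second difference was -0.016, so its direction rested on that array, and without 5 µM replicate 1 it was 0.15. Between the doses FGFR1 differed by -0.02 ± 0.086 (SE), with a 95% interval of 86.3% to 112.6% of the 0.5 nM level.

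DIAPH1, the formin on the RAGE tail that also nucleates actin filaments, had 8.31, 8.32 and 8.33 log2 in untreated cells, 8.43, 8.12 and 8.18 at 0.5 nM and 8.17, 8.19 and 8.21 at 5 µM. The untreated arrays and the 5 µM arrays each formed a tight cluster, and all 3 at 5 µM lay below all 3 untreated, with a gap of 0.11 log2 between the clusters. Such separation with 5 µM lower was seen in 9.26% of all probe sets. The means were 8.19 ± 0.017 at 5 µM and 8.32 ± 0.0092 in untreated cells (SD, n = 3 each), a difference of -0.13 ± 0.070 (SE) or 91.2% of untreated, with limma's adjusted p = 0.68 and a 95% interval of 81.7% to 101.7%.

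The 0.5 nM arrays of DIAPH1 did not cluster. Replicate 1 was the highest of all 9 arrays, and replicate 2 lay below and replicate 3 among the 5 µM arrays. The difference against untreated was -0.08 ± 0.070 (SE), with limma's adjusted p = 0.979. Leaving out 1 of the 3 arrays at 0.5 nM gave -0.17 without replicate 1, -0.020 without replicate 2 and -0.048 without replicate 3, and none of these passed. The pooled spread of the fit includes this group: without 0.5 nM replicate 1, the adjusted p at 5 µM against untreated was 0.402 by limma, with the same difference.

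RAC1, the GTPase that drives lamellipodia and activates PAK kinases, the WAVE complex and NADPH oxidases, had 12.10, 12.04 and 12.12 log2 in untreated cells, 12.26, 12.25 and 12.24 at 0.5 nM and 12.16, 12.16 and 12.13 at 5 µM. No 2 groups overlapped, and the order was untreated lowest, then 5 µM, then 0.5 nM. The means were 12.09 ± 0.044 in untreated cells, 12.25 ± 0.0095 at 0.5 nM and 12.15 ± 0.014 at 5 µM (SD, n = 3 each). Against untreated, 0.5 nM differed by 0.17 ± 0.039 (SE), or 112.4% with a 95% interval of 105.8% to 119.4%. Its unadjusted p, 0.00166, ranked 8 among 8746 probe sets in that comparison, and limma's adjusted p was 0.979. At 5 µM the difference from untreated was 0.06 ± 0.039 (SE), with limma's adjusted p = 0.728, and the lowest 5 µM array exceeded the highest untreated array by 0.017 log2.

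Between the doses RAC1 differed by -0.10 ± 0.039 (SE), 93.0% of the 0.5 nM level, with a 95% interval of 87.6% to 98.8% and limma's adjusted p = 0.988. Groups that do not overlap were common in the whole table: 7.65% of probe sets at 0.5 nM against untreated (2.25% with 0.5 nM higher), 13% at 5 µM against untreated (3.78% with 5 µM higher) and 7.11% between the doses (4.41% with 5 µM lower). The full order seen for RAC1, 0.5 nM above 5 µM above untreated with no 2 groups overlapping, was met by 3 of 8746 probe sets (0.0343%), and separation of all 3 groups in any order by 40 (0.457%). That pattern was picked out after the values were seen and was not tested. The within-group SD of RAC1 was 0.027 log2, lower than in all but 3.29% of probe sets and below the median of 0.068 of the 200 probe sets nearest to it in signal. At 5 µM against untreated, quantile normalization gave 0.03 for RAC1 and median centring 0.09, and leaving out untreated replicate 2 gave 0.04.

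**Figure D3:**
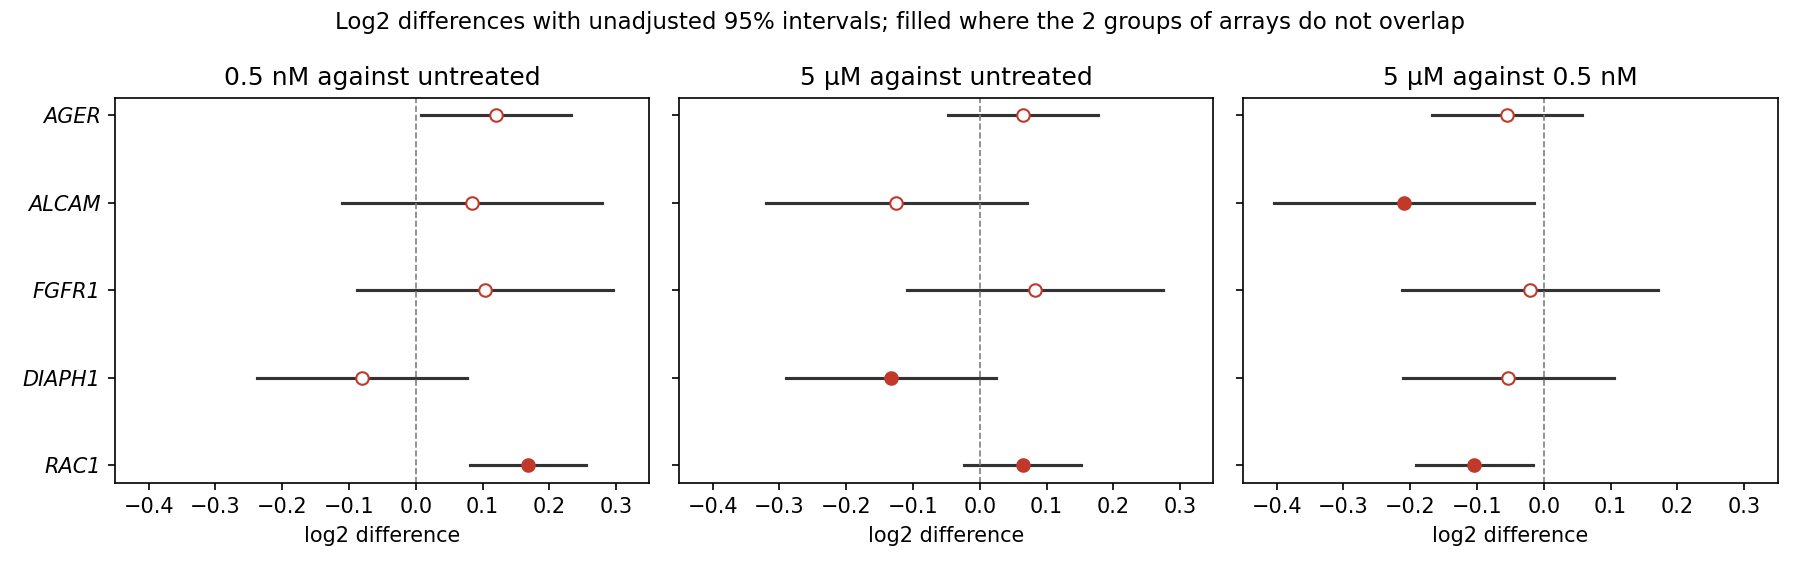
Log2 differences (x axis) of the 5 genes (rows) in 3 comparisons, with unadjusted 95% intervals from the fit to 9 arrays; filled points mark pairs of groups whose 3 and 3 arrays do not overlap. RAC1 at 0.5 nM against untreated, at 0.17, lies farthest from 0 relative to its interval, and 0 of the 15 differences passed after adjustment.

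The 2 comparisons with untreated cells share the untreated arrays, so their values are given side by side only. At 0.5 nM, 4 of 5 genes had a higher mean than untreated and DIAPH1 a lower one, with a median of 0.10 against -0.013 over all probe sets. At 5 µM, AGER, FGFR1 and RAC1 had a higher mean and ALCAM and DIAPH1 a lower one, with a median of 0.06 against -0.016 over all probe sets. Between the doses all 5 means were lower at 5 µM, with a median of -0.055 against -0.0047 over all probe sets. This comparison reuses the arrays of both doses, so it is not independent of the 2 comparisons above. The count of 5 rests on small differences: FGFR1, at -0.02, was at 0.0026 after quantile normalization and at 0.048 without 5 µM replicate 1, and DIAPH1 was at 0.040 without 0.5 nM replicate 1.

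The genes whose signal followed each of the 5 most closely were found by Pearson correlation over the 9 arrays, among 7708 genes. This describes arrays that share a normalization. Picking the highest of 7708 correlations over 9 arrays can give high values for unrelated genes, and no correlation was tested. For AGER these were CRYAA at r = 0.914, EPHA2 at 0.912 and LINC00312 at 0.899. For ALCAM they were QPRT at 0.948, TAGLN2 at 0.940 and CETN2 at 0.912. FGFR1 was followed by GTF2IRD1 at 0.947 and by 2 tRNA synthetase genes, TARS1 at 0.928 and VARS1 at 0.923. DIAPH1 was followed by RBBP4 at 0.927, ATP1B4 at 0.914 and NUP42 at 0.914. For RAC1, 0 of the 7708 genes reached an r of 0.9, and the closest were HDAC4 at 0.839, KAT2A at 0.833 and CA11 at 0.833. With group means taken out, KAT2A was at 0.248 against RAC1. Ranked that way, mostly other genes were closest: 0 of the 3 genes named for each of ALCAM, FGFR1, DIAPH1 and RAC1 were still among its first 3, and 1 of the 3 for AGER. Over the 9 arrays these 15 genes spanned little, from 0.10 log2 for EPHA2 to 0.51 for VARS1.

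Genes around the 5 receptor and effector genes were described from 10 lists with 194 genes, of which 143 were measured. Of these 143, 0 rose and 0 fell in each comparison. At an unadjusted p under 0.05 the share was 6.29% at 5 µM against untreated and 4.196% at 0.5 nM, against 7.71% and 4.04% of all probe sets. The median difference was -0.015 at 5 µM and -0.024 at 0.5 nM, against -0.016 and -0.013 over all probe sets.

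Among 14 RAGE ligands, all 14 were measured and 0 passed, with differences from -0.08 to 0.11 at 5 µM against untreated and a median of -0.0040. S100B, the transcript of the protein that was added, had 5.56, 5.73 and 5.56 log2 in untreated cells, 5.56, 5.53 and 5.56 at 0.5 nM and 5.57, 5.47 and 5.58 at 5 µM, at the 22.6th percentile on average. Its difference from untreated was -0.07 ± 0.057 (SE) at 0.5 nM and -0.08 ± 0.057 at 5 µM. HMGB1, a chromatin protein that is a RAGE ligand when released, was at 0.08 ± 0.067 and -0.06 ± 0.067 at these doses. S100A8, a ligand from myeloid cells, was at -0.08 ± 0.040 at 0.5 nM, and S100A12, another, at -0.056 ± 0.045 (SE) at 5 µM.

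Of 10 other receptors that bind the same ligands, 10 were measured and 0 passed, with medians of -0.036 at 0.5 nM and -0.0084 at 5 µM. The chemokine receptor CXCR4, which can signal with HMGB1, lay at the 92.4th percentile and differed by -0.09 ± 0.084 at 0.5 nM and 0.09 ± 0.084 (SE) at 5 µM. LGALS3, galectin 3, was at -0.12 ± 0.050 at 0.5 nM and SCARB1, a scavenger receptor, at -0.12 ± 0.083 at 5 µM. The pattern-recognition receptors TLR4 and TLR2 lay at the 7.99th and 32.3th percentile. Of 5 genes for sheddases of RAGE or ALCAM and their inhibitor, 5 were measured and 0 passed. ADAM10, a sheddase of RAGE, lay at the 81.4th percentile and ADAM17, a sheddase of ALCAM, at the 37.9th. The metalloproteinase inhibitor TIMP3 had the largest difference, -0.35 ± 0.17 (SE) at 5 µM, with limma's adjusted p = 0.655. Its values were 7.14, 7.05 and 6.87 log2 in untreated cells and 6.85, 6.89 and 6.27 at 5 µM. These groups overlapped, and much of the difference came from 5 µM replicate 3.

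Of 33 kinases, GTPases and transcription factors downstream of RAGE, 21 were measured and 0 passed. SRC, a tyrosine kinase recruited by RAGE, had 8.28, 8.45 and 8.53 log2 in untreated cells, 8.63, 8.62 and 8.87 at 0.5 nM and 8.52, 8.58 and 8.81 at 5 µM. All 0.5 nM arrays lay above all untreated arrays, and the 5 µM arrays overlapped them by 1 array. Separation with 0.5 nM above untreated was seen in 2.25% of all probe sets. The difference from untreated was 0.29 ± 0.098 at 0.5 nM and 0.22 ± 0.098 (SE) at 5 µM, with limma's adjusted p of 0.979 and 0.646. NFKBIA, the NF-kB inhibitor that NF-kB itself induces, was at 0.11 ± 0.079 and 0.19 ± 0.079. Here limma's adjusted p was 0.979 and 0.608. Both dose groups lay above all untreated arrays, but only just. The highest untreated array had 8.306 log2 and the lowest array of each dose 8.313. Both doses were above untreated without overlap in 0.755% of all probe sets. MAPK8, the kinase JNK1, was at -0.17 ± 0.074 at 5 µM, and CYBA, a subunit of NADPH oxidase, at -0.17 ± 0.066 at 0.5 nM.

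**Figure D4:**
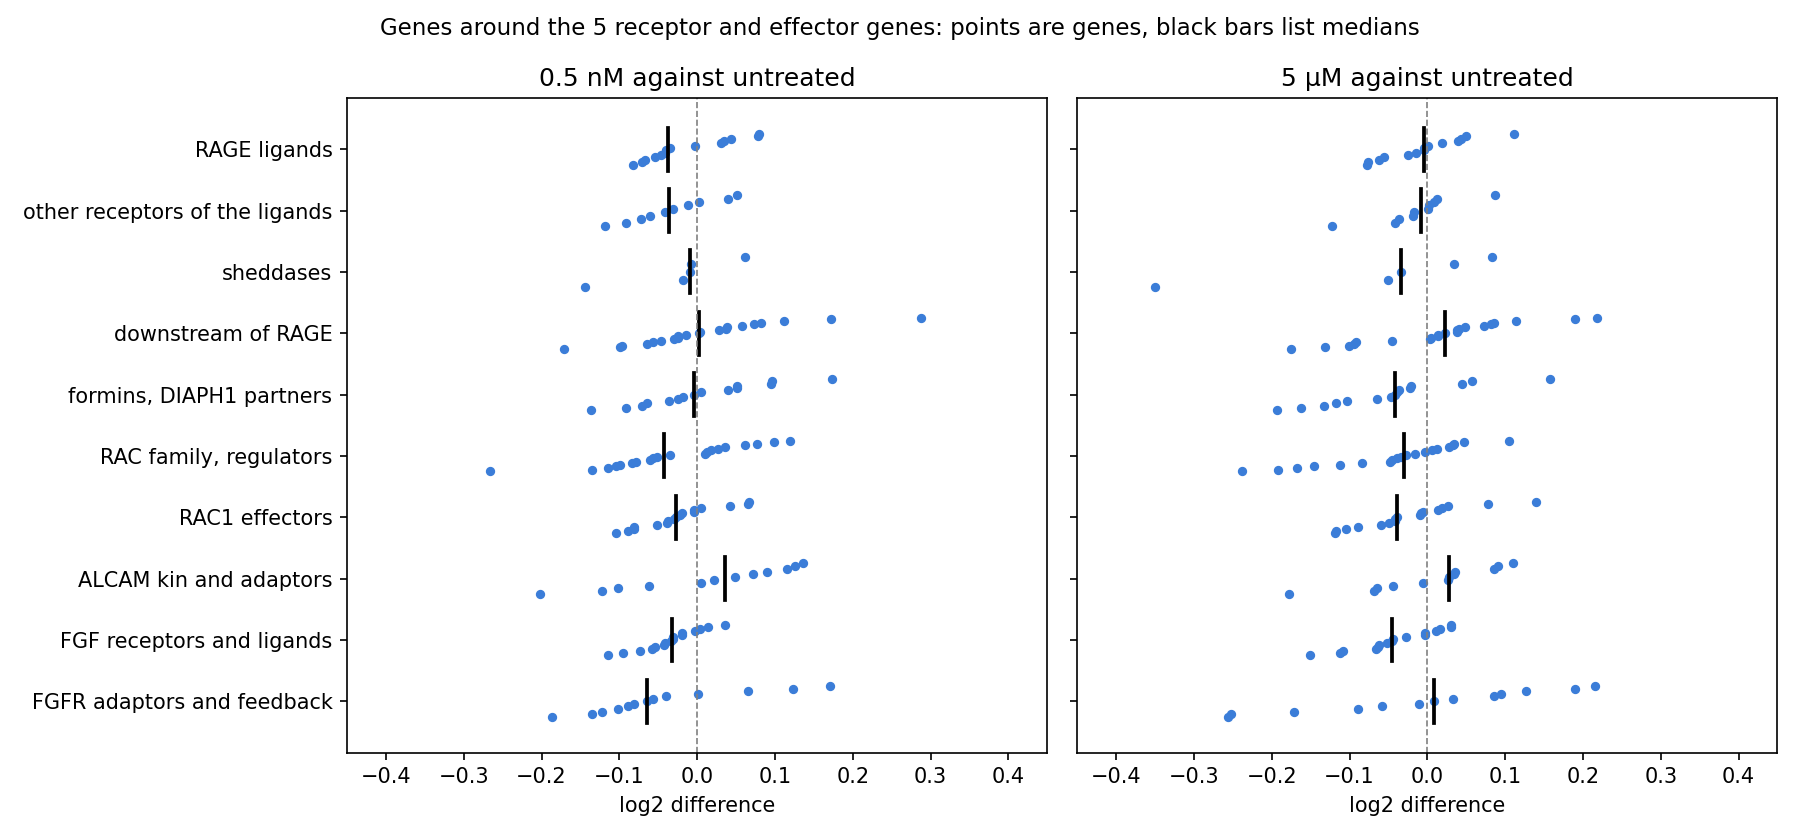
Log2 differences from untreated cells (x axis) of 143 genes in 10 lists (rows), at 0.5 nM (left) and 5 µM (right). Points are genes and black bars list medians, which lie between -0.065 and 0.036 at 0.5 nM and between -0.045 and 0.027 at 5 µM.

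Among formins and partners of DIAPH1, 15 of 21 were measured and 0 passed, with medians of -0.0037 at 0.5 nM and -0.042 at 5 µM. RHOC, a GTPase of the group that activates diaphanous formins, had 7.32, 7.41 and 7.36 log2 in untreated cells, 7.42, 7.37 and 7.23 at 0.5 nM and 7.30, 7.10 and 7.11 at 5 µM. The 5 µM arrays lay below all untreated arrays, by -0.19 ± 0.069 (SE) with limma's adjusted p = 0.544. PFN1, the actin-binding profilin that feeds formins, was at -0.16 ± 0.088 at 5 µM, also with no overlap. In all 4 of these 15 genes did not overlap at 5 µM against untreated, where 13% of all probe sets did not. DIAPH2, a diaphanous formin related to DIAPH1, was at -0.13 ± 0.083 at 5 µM.

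Among the RAC family and its regulators, 20 of 28 were measured and 0 passed. Of the relatives of RAC1, RAC3 was at 0.01 ± 0.17 at 0.5 nM and -0.24 ± 0.17 at 5 µM (SE). RAC2 was at -0.04 ± 0.075 and 0.03 ± 0.075, and CDC42 at -0.06 ± 0.10 and 0.03 ± 0.10 (SE). None of these relatives separated all 3 groups. Only 0.457% of all probe sets did, so its absence here says little. RACGAP1, a GTPase-activating protein of mitotic cells, was at -0.27 ± 0.10 at 0.5 nM, and VAV3, an exchange factor, at -0.15 ± 0.055 at 5 µM, with limma's adjusted p of 0.979 and 0.581. Of 29 RAC1 effectors, 17 were measured and 0 passed. ABI1, a WAVE complex subunit, had 5.44, 5.47 and 5.43 log2 in untreated cells, 5.44, 5.44 and 5.37 at 0.5 nM and 5.55, 5.57 and 5.64 at 5 µM. All 5 µM arrays lay above the other 6, with 0.14 ± 0.043 (SE) against untreated. Its adjusted p was the smallest of the 143 genes in that comparison, 0.461 by limma. Separation with 5 µM above untreated was seen in 3.78% of all probe sets. The ABI1 signal lay at the 20.1th percentile on average, below that of AGER, and was not shown to stand above background. WASF3, another WAVE subunit, was at -0.10 ± 0.057 and -0.12 ± 0.057 at the low and the high dose.

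For ALCAM, 12 of 15 related adhesion molecules, ligands and adaptors were measured and 0 passed. BCAM, a laminin-binding adhesion molecule, was at -0.18 ± 0.057 (SE) at 5 µM, with limma's adjusted p = 0.515. All its 5 µM arrays lay below all untreated arrays, as was seen in 9.26% of all probe sets. SDCBP, the adaptor syntenin, was at -0.12 ± 0.078 at 0.5 nM and 0.09 ± 0.078 at 5 µM. Around FGFR1, 16 of 19 receptors, co-receptors and ligands were measured, 9 of them below the 25th percentile of signals, and 0 passed. FGFR2, FGFR3 and FGFR4 lay at the 13.4th, 33.6th and 41.6th percentile. FGFR4 was at -0.15 ± 0.053 (SE) at 5 µM against untreated, with limma's adjusted p = 0.544. Of 20 adaptors and feedback genes of FGF receptors, 13 were measured and 0 passed: the transcription factor ETV1 was at -0.25 ± 0.086 and the exchange factor SOS2 at 0.22 ± 0.081 at 5 µM, with limma's adjusted p of 0.536 and 0.582, and the ubiquitin ligase CBL was at -0.19 ± 0.061 at 0.5 nM.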

How the data were processed

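RNA of 9 samples was measured on 1-colour arrays; titles gave group and replicate. The authors deposited log2 values, made with GCRMA per the submitters' processing notes, which name no version. That method corrects background and normalises between arrays, which can compress differences of dim probe sets such as that of AGER. The log2 scale was read from the values, 4.37 to 14.5.

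Of 8793 probe sets, 47 controls were taken out and 8746 tested without an intensity filter. Of these, 7840 had 1 gene symbol, 388 several and 518 no entry; symbols were updated by Entrez identifier, and 7838 matched the RefSeq table (GRCh38.p14). The fit was limma 3.58.1 in R 4.3.3, with 3 groups, no covariate and Benjamini-Hochberg adjustment over all probe sets; 0.05 was the threshold. Intervals are limma's 95% intervals. The median half-width of an interval was 0.134 log2, and the number of arrays limits the precision. An exact permutation test of 3 against 3 cannot go below 0.1. The procedure was tested on simulated data.

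The 5 genes, the 10 lists, the marker lists and the tests were chosen with earlier results of these data known. The rule for names in each list was the genes past the threshold or, where none passed, the 2 with the smallest p at each dose, of which the text describes some; S100B is always named, and HMGB1, TLR2, TLR4, ADAM10, ADAM17, DIAPH2, RAC2, RAC3, CDC42, FGFR2 and FGFR3 are named for their role, after their values were seen. For a gene with several probe sets the one of highest mean was used. Of the 5 genes, FGFR1 and DIAPH1 have probe sets with a suffix used where probes match several transcripts. Several listed genes carry it too, among them NFKBIA, RACGAP1, ABI1, ETV1 and TIMP3. The probe sets of MAPK8 and HMGB1 carry another suffix, _x_at, and their signals were not shown to be specific to those genes. Alternatives were another normalization, a filter, the replicate number as a block, a 2-group fit, another variance prior and leaving out each array.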

Additional observations from a re-analysis of the deposited data

How the results depend on the processing

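The 15 differences of the 5 genes were refitted under up to 15 alternatives, and 0 of 222 refitted values passed, with the smallest adjusted p at 0.402; 216 kept their direction. The cause of the other 6 was not tested. FGFR1 at 5 µM against untreated ran from -0.016 to 0.15 when 1 array was left out, and at 5 µM against 0.5 nM from -0.12 to 0.048, with 0.0026 after quantile normalization. DIAPH1 at 5 µM against 0.5 nM ran from -0.11 to 0.040 when 1 array was left out. Of all probe sets, 16 changed at 5 µM against untreated, 14 between the doses and 14 among the 3 groups. These counts ran from 1 to 17, 1 to 10 and 1 to 9 when 1 array was left out, the fewest without 5 µM replicate 2 in each. A fit of only the 2 groups gave 5 and 2, the intensity trend with a robust prior 25 at 5 µM against untreated, and quantile normalization 22 between the doses. With the replicate block the counts were 12, 15 and 12, and 0 at 0.5 nM against untreated. Replicate 3 arrays deviated from their group means together, at correlations of 0.242 to 0.291, while those of replicates 1 and 2 lay between -0.0060 and 0.187. An array correlated best with its own number in 6 of 6 cases for replicate 3, 2 of 6 for replicate 2 and 1 of 6 for replicate 1, so the numbers were not taken as pairs throughout. AGER was among the 2915 dimmest probe sets that the filter left out and has no value there.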
